A study of Homo sapiens with 6 samples.

Results

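Genes of the TGF-beta, BMP and SMAD pathway were compared between an HCT116 mutant, labelled as altered in its DNA methylation, and the parental HCT116 line. The set was a list of 49 genes that covers ligands, receptors, SMADs, antagonists, regulators and direct targets. No cut-off on the values of its members was used to choose it, but earlier results of these data were known. Each gene was read from its probe set with exactly 1 gene symbol and the highest mean over the 6 arrays. Of the 49 genes, 48 were measured in this way, out of 18417 genes with such a probe set, and BMPR1A, a type I BMP receptor, is not analysed here. HCT116 is an established human colorectal carcinoma line, and it is known to carry frameshift mutations that inactivate TGFBR2. The groups were 3 arrays of the mutant line, whose labels state neither the mutated gene nor whether it is a single clone, and 3 arrays of the parental line. Both lines were grown in the same serum-containing medium without a stated treatment, and the labels name no added TGF-beta or BMP. No label says that arrays of a line came from separate cultures, so the p-values measure the spread between these arrays, which may be technical.

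In this pathway dimeric ligands bind a pair of type II and type I receptor kinases at the cell surface. The activated type I receptor phosphorylates receptor-regulated SMADs: SMAD2 and SMAD3 after TGF-beta, activin or nodal, and SMAD1, SMAD5 and SMAD9 after BMP. These join the common SMAD, SMAD4, in the nucleus, where they act on target genes such as the ID genes, while inhibitory SMADs, ubiquitin ligases and corepressors limit the signal. In the intestine BMP signals promote differentiation along the crypt axis, and TGF-beta restrains growth of epithelial cells. Many colorectal cancers lose part of the pathway.

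All values are log2 expression values of the deposited robust multi-array average (RMA), and a difference is mutant minus parental on that log2 scale. The standard error (SE) of a difference is the moderated one of the limma fit, which draws on the variance of all probe sets. The arrays had medians of 6.88 to 6.93. Arrays of the same line correlated at 0.995 to 0.996 and arrays of different lines at 0.988 to 0.989 across probe sets, which are not independent. Of 12 markers of colorectal epithelium, 8 had means of at least 7 in mutant cells and likewise 8 in parental cells; VIL1, CDH17, LGALS4 and KRT20 lay below 7 in both lines. Of these markers 5 were lower and 0 higher in the mutant, with CDH1, which encodes E-cadherin, changed by -1.36. Their averaged level was 8.63 to 8.76 on mutant arrays, against 9.04 to 9.05 on parental arrays. The part of this shift in the pathway results was not tested. Markers of fibroblasts (10 measured, 1 higher), endothelium (6 measured, 0 called) and leukocytes (7 measured, 0 called) had averaged levels of 5.26 to 5.93 on mutant arrays and 5.30 to 5.92 on parental arrays. Of these lists COL1A1 (8.13 in mutant and 8.30 in parental cells), CD68 (9.33 and 9.19) and NKG7 (7.12 and 7.16) lay above 7 in both lines. With arrays of whole cultures, fewer cells of a type and less RNA per cell cannot be told apart.

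Of the 48 measured pathway genes, 18 differed between the lines at an adjusted p under 0.05 (limma, Benjamini-Hochberg over all 33297 probe sets), 9 higher and 9 lower in the mutant. Across all 18417 genes 25.9% were called, 14.6% higher and 11.3% lower, while 37.5% of the pathway genes were called. The median difference of the pathway genes was -0.0002, beside 0.0034 over all genes, and the median size of their differences was 0.127, beside 0.125 over all genes. A call with at least a 1.5-fold difference was made for 7 of the 48 measured pathway genes, beside 1330 of all 18417 genes (7.22%). BMP4 and LTBP1 rose past that size, and TGFBR2, SMURF2, NEDD4L, ID1 and ID2 fell past it. TGFB2, whose fold lay just under that limit, was the nearest gene outside. A test for a fold above 1.2 left 9 calls, those 7 with LTBP3 and TGIF1. In all 18 called genes the 3 mutant arrays lay apart from the 3 parental arrays. This was also so for 5 genes that were not called, and over all genes the lines did not overlap in 45.8%.

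**Figure D1:**
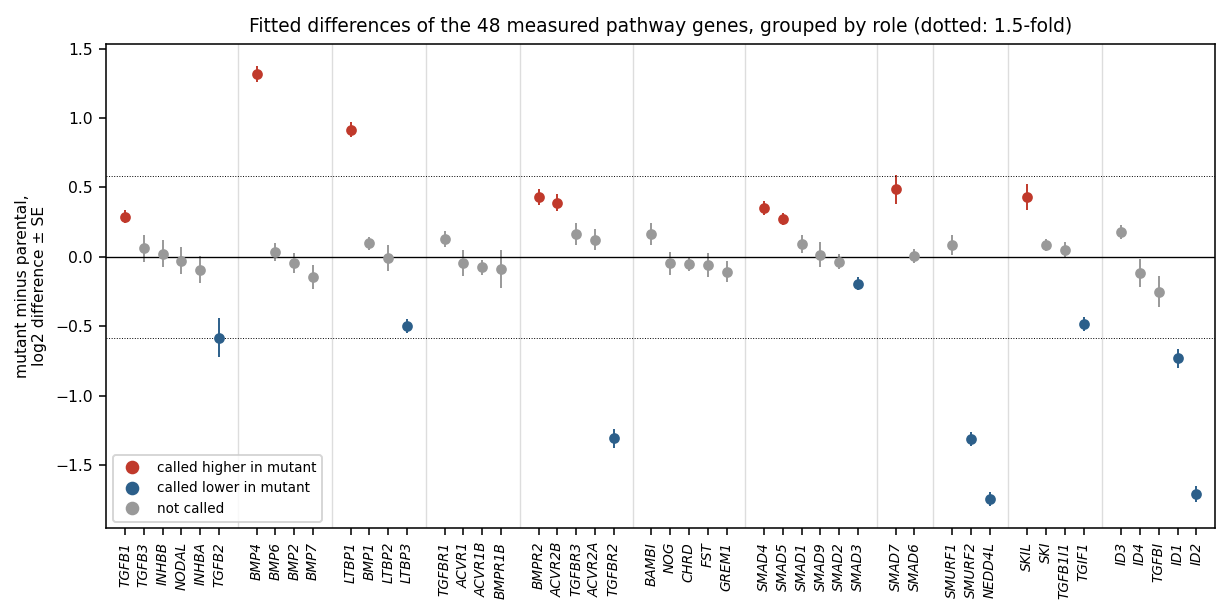
Mutant minus parental log2 difference with its standard error for the 48 measured pathway genes (n = 3 arrays per line), in blocks by role from ligands at the left to direct targets at the right. Red points were called higher, blue points called lower and grey points not called, and the dotted lines mark 1.5-fold. BMP4 stands highest at 1.32, and NEDD4L at -1.74 and ID2 at -1.71 stand lowest.

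Calls were more frequent among bright probe sets. Of 36 pathway genes with a mean log2 value of at least 7, 16 were called, where 36.5% of all genes that bright were called. The 7 genes called with at least 1.5-fold were all that bright. Of the 12 dimmer pathway genes 2 were called, TGFB2 and SMAD7, beside 9.52% of all genes that dim. RMA compresses differences near the background, so the 12 dim genes, among them GREM1, NOG, FST, NODAL, INHBA, TGFB3 and ID4, could show a smaller part of any change.

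Because the mutant is labelled as altered in DNA methylation, the sequence before the start of the 7 genes called with at least 1.5-fold is given with each CpG, the site at which mammalian DNA is mainly methylated, in capitals. Methylation itself was not measured here. The sequences are from RefSeq on build GRCh38.p14, cover the 250 bases before the gene's annotated start and run 5′ to 3′ on the gene's own strand. The start in use in these cells may be another. The window of BMP4 is chr14:53955051-53955300 on the minus strand, and that of LTBP1 is chr2:32946703-32946952 on the plus strand. The window of TGFBR2 is chr3:30606106-30606355 on the plus strand, that of SMURF2 is chr17:64662308-64662557 on the minus strand, and that of NEDD4L is chr18:58046976-58047225 on the plus strand. The windows of the ID genes are chr20:31605039-31605288 on the plus strand (ID1) and chr2:8681806-8682055 on the plus strand (ID2).
BMP4: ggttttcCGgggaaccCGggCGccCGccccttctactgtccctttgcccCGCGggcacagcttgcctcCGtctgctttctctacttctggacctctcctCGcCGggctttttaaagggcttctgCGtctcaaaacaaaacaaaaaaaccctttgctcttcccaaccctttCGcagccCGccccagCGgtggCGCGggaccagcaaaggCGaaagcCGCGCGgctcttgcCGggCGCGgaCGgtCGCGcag
LTBP1: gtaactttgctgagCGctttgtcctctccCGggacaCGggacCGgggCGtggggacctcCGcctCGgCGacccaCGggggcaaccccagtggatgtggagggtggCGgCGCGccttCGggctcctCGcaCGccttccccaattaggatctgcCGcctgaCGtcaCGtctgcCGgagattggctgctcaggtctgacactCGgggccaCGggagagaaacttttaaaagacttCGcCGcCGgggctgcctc
TGFBR2: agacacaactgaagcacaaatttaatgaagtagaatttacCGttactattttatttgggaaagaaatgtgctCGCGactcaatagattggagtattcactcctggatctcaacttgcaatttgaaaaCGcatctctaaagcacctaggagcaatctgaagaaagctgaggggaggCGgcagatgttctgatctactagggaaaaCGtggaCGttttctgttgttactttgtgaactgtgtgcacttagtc
SMURF2: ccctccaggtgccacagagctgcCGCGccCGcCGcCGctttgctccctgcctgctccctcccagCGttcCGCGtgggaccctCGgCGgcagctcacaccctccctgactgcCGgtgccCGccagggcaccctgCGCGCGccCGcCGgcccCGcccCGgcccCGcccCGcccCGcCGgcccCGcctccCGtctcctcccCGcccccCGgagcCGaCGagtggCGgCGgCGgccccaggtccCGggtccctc
NEDD4L: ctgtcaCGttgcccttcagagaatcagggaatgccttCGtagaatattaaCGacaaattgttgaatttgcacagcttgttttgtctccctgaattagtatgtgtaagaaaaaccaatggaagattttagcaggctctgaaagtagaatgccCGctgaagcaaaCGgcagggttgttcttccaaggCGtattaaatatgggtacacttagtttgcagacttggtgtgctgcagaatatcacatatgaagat
ID1: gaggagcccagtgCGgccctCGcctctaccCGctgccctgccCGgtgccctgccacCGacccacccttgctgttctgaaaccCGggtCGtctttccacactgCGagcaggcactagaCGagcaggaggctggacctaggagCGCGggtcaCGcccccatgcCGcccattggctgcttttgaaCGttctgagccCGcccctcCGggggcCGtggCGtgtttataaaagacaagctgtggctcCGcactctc
ID2: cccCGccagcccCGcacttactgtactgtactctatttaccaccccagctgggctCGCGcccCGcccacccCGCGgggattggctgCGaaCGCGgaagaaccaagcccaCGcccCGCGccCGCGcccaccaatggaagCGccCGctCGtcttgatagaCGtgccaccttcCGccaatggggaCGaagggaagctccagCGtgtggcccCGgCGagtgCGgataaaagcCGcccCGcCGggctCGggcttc

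Counted in these windows, SMURF2 had 33 CpGs, ID2 29, BMP4 25, LTBP1 24 and ID1 19, whereas TGFBR2 had 7 and NEDD4L 6. The CpG-rich and the CpG-poor windows thus both occurred among genes that fell. Of the measured pathway genes 43 had a window in the table, with a median of 25 CpGs, beside a median of 18 over the 14237 windows of genes on the array. The median was 25 in the 9 genes called higher, 19 in the 9 called lower and 26 in the 25 not called. The letters CG occurred in 100% of the pathway windows and in 97.0% of those of array genes. The letters CAGAC, the core of the SMAD binding element, were searched on both strands and found in 39.5% of the pathway windows and in 36.7% of the windows of array genes. The letters GGCGCC, which read the same on both strands, occur in BMP-responsive elements. They were found in 32.6% of the pathway windows and in 21.9% of those of array genes. By call, CAGAC was in 5 of 9 windows of genes called higher, 3 of 9 called lower and 9 of 25 not called, and GGCGCC in 4 of 9, 1 of 9 and 9 of 25. Neither the window of ID1 nor that of ID2 held either of these letter runs. GGCGCC contains CpG, so its count moves with CpG content.

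Among the TGF-beta ligands, which signal through TGFBR2 and TGFBR1, 1 rose and 1 fell. TGFB1, the most widely expressed TGF-beta, had 10.16, 10.14 and 10.20 on the mutant arrays, against 9.84, 9.90 and 9.89 on the parental arrays. Its groups were apart by several times their own spread, and the difference was 0.29 ± 0.05 (SE, n = 3 each; adjusted p = 0.00891). TGFB2, a second isoform, had 5.73, 5.47 and 5.84 on mutant arrays and 6.37, 6.02 and 6.39 on parental arrays. All mutant arrays lay below all parental arrays, but the probe set was dim and the arrays of a line were scattered. The difference was -0.58 ± 0.14 (SE; adjusted p = 0.0332). That call was lost without mutant array 1 or 2 or parental array 1 or 3, with adjusted p-values of 0.0235 to 0.104 over the 6 fits that each left out 1 array and 0.00974 to 0.336 over all alternatives. TGFB3 (0.06), the activin subunit genes INHBA (-0.09) and INHBB (0.02), and NODAL (-0.03), a ligand of early development, had adjusted p-values of 0.618 to 0.909, and their arrays overlapped between the lines.

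BMP4, the BMP ligand with the one call in its group, was the pathway gene with the largest increase. It had 12.91, 12.78 and 12.86 on mutant arrays, against 11.49, 11.53 and 11.57 on parental arrays. The distance between the lines was many times the scatter within either. The difference was 1.32 ± 0.06 (SE, n = 3 each), 2.50-fold, with adjusted p = 7.55e-05. The other BMP ligand genes were not called, namely BMP2 (-0.05), BMP6 (0.03) and BMP7 (-0.14), with adjusted p-values of 0.353 to 0.801. BMP7 had 8.01, 7.99 and 8.03 on mutant arrays and 7.97, 8.20 and 8.29 on parental arrays, so its lowest parental array lay below the mutant ones.

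The genes for latent TGF-beta binding proteins, which tether inactive TGF-beta in the extracellular matrix, went in different directions. LTBP1 had 8.42, 8.47 and 8.52 on mutant arrays, against 7.54, 7.51 and 7.61 on parental arrays, a difference of 0.92 ± 0.06 (SE; 1.89-fold; adjusted p = 0.00023). LTBP3 had 10.15, 10.19 and 10.24 on mutant arrays, against 10.65, 10.74 and 10.69 on parental arrays, a difference of -0.50 ± 0.05 (SE; adjusted p = 0.00172). LTBP1 thus rose and LTBP3 fell, both with no overlap, while LTBP2 gave -0.01 (adjusted p = 0.979). BMP1, despite its name a metalloproteinase that trims procollagen and cleaves the BMP antagonist chordin, gave 0.10 (adjusted p = 0.240), and its dimmer second probe set gave -0.02.

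**Figure D2:**
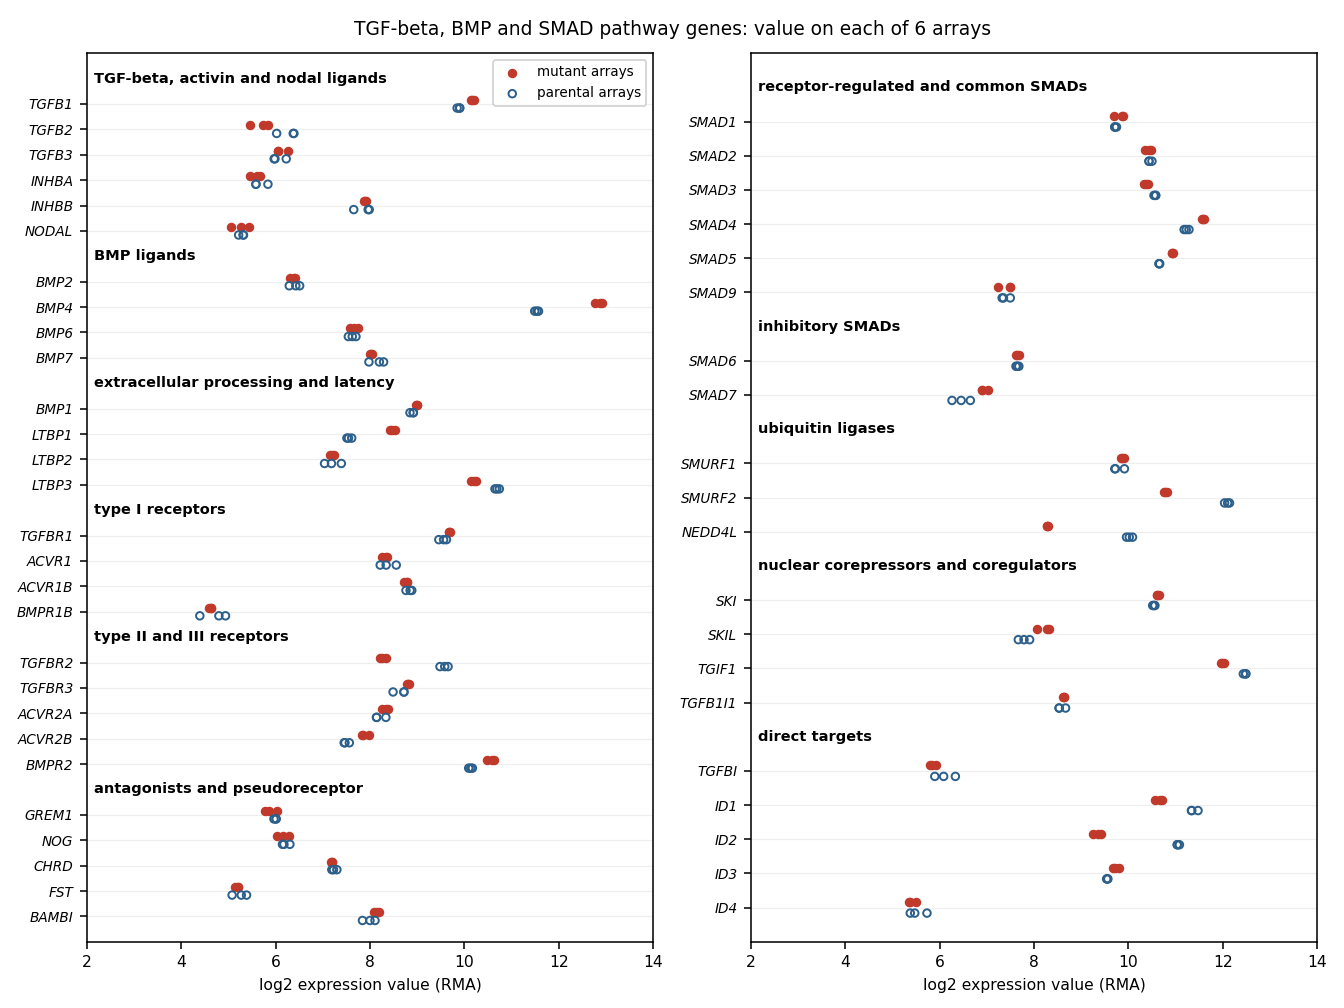
Log2 expression value on each array (horizontal axis) for the 48 measured pathway genes, with the 3 mutant arrays as filled red points above the 3 parental arrays as open blue points. Mutant points of BMP4 and LTBP1 lie to the right of the parental points, and those of TGFBR2, SMURF2, NEDD4L, ID1 and ID2 lie to the left without overlap.

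Of the type II receptors and the coreceptor measured, TGFBR2 fell, BMPR2 and ACVR2B rose, and ACVR2A and TGFBR3 were not called. TGFBR2, the receptor that binds TGF-beta first, had 8.34, 8.21 and 8.24 on mutant arrays, against 9.58, 9.48 and 9.65 on parental arrays. Every mutant array was more than 1 log2 unit below every parental array. The difference was -1.31 ± 0.07 (SE, n = 3 each), 2.47-fold lower, with adjusted p = 0.000137. The other type II receptors with a call rose by less: BMPR2, which binds BMPs, had 10.63, 10.48 and 10.58 on mutant arrays, against 10.09, 10.17 and 10.13 on parental arrays, a difference of 0.43 ± 0.06 (SE; adjusted p = 0.00441). ACVR2B, a receptor for activins and some BMPs, averaged 7.88 ± 0.07 in mutant cells and 7.49 ± 0.06 in parental cells (SD, n = 3 each), and the lines differed by 0.39 (adjusted p = 0.00744). ACVR2A, its paralog, gave 0.12 (adjusted p = 0.346) with overlapping arrays, and the coreceptor TGFBR3 (betaglycan) gave 0.16 (adjusted p = 0.219) without overlap.

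The type I receptors TGFBR1 (0.13), ACVR1 (-0.05), ACVR1B (-0.08) and BMPR1B (-0.09) had adjusted p-values of 0.196 to 0.814. TGFBR1, the kinase that pairs with TGFBR2, had 9.69, 9.67 and 9.66 on mutant arrays and 9.46, 9.62 and 9.56 on parental arrays. Its lines did not overlap, but the nearest arrays of the lines were closer to each other than the parental arrays were among themselves. BMPR1B was dim, with a mean log2 of 4.62 in mutant cells and 4.71 in parental cells.

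Extracellular antagonists were not called. GREM1 (-0.11), NOG (-0.05) and CHRD (-0.05), which bind BMPs, FST (-0.06), which binds activin, and the pseudoreceptor BAMBI (0.16), which lacks the kinase domain, had adjusted p-values of 0.248 to 0.776. All 5 overlapped between the lines. BAMBI had 8.19, 8.08 and 8.15 on mutant arrays and 7.997, 7.838 and 8.104 on parental arrays.

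Among the SMADs that carry the signal, SMAD4 and SMAD5 rose and SMAD3 fell, SMAD4 with the largest change at 1.28-fold. SMAD4, the common SMAD, had 11.56, 11.58 and 11.60 on mutant arrays, against 11.18, 11.22 and 11.28 on parental arrays, a difference of 0.35 ± 0.05 (SE, n = 3 each; adjusted p = 0.00524). SMAD5, which transmits BMP signals, had 10.94, 10.92 and 10.93 on mutant arrays, against 10.65, 10.66 and 10.65 on parental arrays. The arrays within a line had SDs of 0.0058 in mutant and 0.0075 in parental cells, and the difference was 0.28 ± 0.04 (SE; adjusted p = 0.00734). That moderated SE is larger than the 0.0055 of an ordinary linear model, which uses the spread of this probe set alone. SMAD3, which transmits TGF-beta signals, had 10.34, 10.37 and 10.41 on mutant arrays, against 10.58, 10.54 and 10.57 on parental arrays, a difference of -0.19 ± 0.05 (SE; adjusted p = 0.0358). The call of SMAD3 was lost when any 1 of the 6 arrays was left out, with adjusted p-values of 0.0627 to 0.113, and they were 0.00513 to 1 over all alternatives. SMAD1 (0.09), SMAD2 (-0.03) and SMAD9 (0.02) had adjusted p-values of 0.413 to 0.936. The probe sets of SMAD2 disagreed: a dimmer one, with a mean log2 of 9.11 in mutant cells and 8.87 in parental cells, gave 0.24 (adjusted p = 0.0265).

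Of the inhibitory SMADs, which block receptor-regulated SMADs and are themselves induced by the pathway, SMAD7 rose and SMAD6 did not pass. SMAD7 had 6.91, 7.02 and 6.91 on mutant arrays, against 6.26, 6.46 and 6.65 on parental arrays, a difference of 0.49 ± 0.10 (SE; adjusted p = 0.023). The parental arrays were more scattered than the mutant ones, and the call was lost without parental array 2 or without any of the mutant arrays (adjusted p 0.0135 to 0.0801 with each array left out, and 0.00631 to 0.392 over all alternatives). SMAD6 had 7.69, 7.62 and 7.65 on mutant arrays and 7.64, 7.68 and 7.62 on parental arrays, a difference of 0.01 (adjusted p = 0.959).

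Of the ubiquitin ligases that turn over receptors and SMADs, 2 of 3 fell. NEDD4L, a HECT-type ligase that targets activated SMAD2 and SMAD3 as well as ion channels, had the largest difference of the set. It had 8.27, 8.29 and 8.27 on mutant arrays, against 9.96, 10.02 and 10.09 on parental arrays. The difference was -1.74 ± 0.05 (SE, n = 3 each), 3.35-fold lower, with adjusted p = 2.17e-05. SMURF2, a ligase that SMAD7 brings to the TGF-beta receptor, had 10.81, 10.76 and 10.78 on mutant arrays, against 12.04, 12.10 and 12.14 on parental arrays. The difference was -1.31 ± 0.05 (SE), 2.48-fold lower, with adjusted p = 5.43e-05. SMURF1, its close paralog, had 9.85, 9.86 and 9.90 on mutant arrays and 9.72, 9.71 and 9.92 on parental arrays, and gave 0.08 (adjusted p = 0.504).

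Of 4 nuclear corepressors and coregulators measured, 1 was higher and 1 lower. SKIL (SnoN), a SMAD corepressor, had 8.32, 8.27 and 8.06 on mutant arrays, against 7.67, 7.79 and 7.91 on parental arrays, a difference of 0.43 ± 0.10 (SE; adjusted p = 0.026). The lines did not overlap, but both were scattered, and the call was lost without mutant array 1 or 2 or parental array 1 or 2 (adjusted p 0.0213 to 0.0885 with each array left out, and 0.00491 to 0.597 over all alternatives). TGIF1, a homeodomain corepressor of SMAD2 and SMAD3, had 11.98, 11.95 and 12.03 on mutant arrays, against 12.43, 12.48 and 12.49 on parental arrays, a difference of -0.48 ± 0.05 (SE; adjusted p = 0.00144). All 5 probe sets of TGIF1 were called lower, by differences of -0.38 to -0.51. SKI, the relative of SKIL, gave 0.09 (adjusted p = 0.284) without overlap, and TGFB1I1, a TGF-beta inducible LIM protein, gave 0.05 (adjusted p = 0.654).

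The ID genes, which encode inhibitors of bHLH transcription factors and are classical direct targets of BMP and SMAD1 or SMAD5, did not move together. ID2 had 9.42, 9.35 and 9.26 on mutant arrays, against 11.04, 11.08 and 11.03 on parental arrays. The difference was -1.71 ± 0.06 (SE, n = 3 each), 3.26-fold lower, with adjusted p = 3.5e-05. ID1 had 10.67, 10.57 and 10.72 on mutant arrays, against 11.34, 11.47 and 11.33 on parental arrays. The difference was -0.73 ± 0.07 (SE), 1.66-fold lower, with adjusted p = 0.000988. ID3 lay the other way, with 9.80, 9.67 and 9.72 on mutant arrays and 9.56, 9.54 and 9.55 on parental arrays. Its difference of 0.18 ± 0.05 (SE) was not called (adjusted p = 0.0617), although no array overlapped and 5 of the 16 alternatives called it (adjusted p 0.0142 to 1 over all of them). ID4 was dim in both lines and gave -0.12 (adjusted p = 0.526). TGFBI, a matrix protein gene named for its induction by TGF-beta, had 5.84, 5.80 and 5.92 on mutant arrays and 6.33, 5.90 and 6.08 on parental arrays, and gave -0.25 (adjusted p = 0.210).

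Further target genes were read from a list of pathway genes outside the set, in which 5 of 27 measured were higher and 3 lower. That is 29.6%, beside 25.9% of all genes. All 8 were among the 18 with a mean log2 of at least 7, and 36.5% of all genes that bright were called. The homeobox genes MSX1 and MSX2, which BMP induces in several tissues, both rose. MSX2 had 9.98, 9.89 and 9.96 on mutant arrays, against 8.40, 8.56 and 8.69 on parental arrays, a difference of 1.39 ± 0.08 (SE; adjusted p = 0.000216). MSX1 rose by 0.74 ± 0.07 (SE; adjusted p = 0.0013). DLX5 (-0.07), HEY1 (-0.13), ATOH8 (0.02), HAMP (-0.08) and GATA2 (0.08), from the same list, were not called. Their adjusted p-values were 0.352 to 0.9, and all but GATA2 had means under 7. The called BMP target genes of both lists thus went in both directions, ID1 and ID2 lower and MSX1 and MSX2 higher in the mutant.

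Of target genes tied to TGF-beta, SNAI2, a repressor of epithelial genes, had 9.21, 9.13 and 9.14 on mutant arrays, against 7.01, 6.87 and 7.16 on parental arrays, a difference of 2.15 ± 0.08 (SE; adjusted p = 5.31e-05). Its relative SNAI1 fell by 0.36 on the log2 scale (adjusted p = 0.00922). CCN1, a matricellular protein gene listed under its older symbol CYR61, rose by 1.34 ± 0.14 (SE; adjusted p = 0.00178), while its relative CCN2 gave 0.06 (adjusted p = 0.603). CDKN1A, which encodes the cell cycle inhibitor p21, was higher by 0.23 (adjusted p = 0.0408), a call lost without any 1 of the 6 arrays. BHLHE40 (-0.34) and SPHK1 (-0.27) were lower, and the call of SPHK1 was lost without every array but mutant array 3. JUNB (0.09), MYC (-0.18), CDKN2B (0.03) and FN1 (-0.02), widely used readouts of TGF-beta response, had adjusted p-values of 0.0834 to 0.889.

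**Figure D3:**
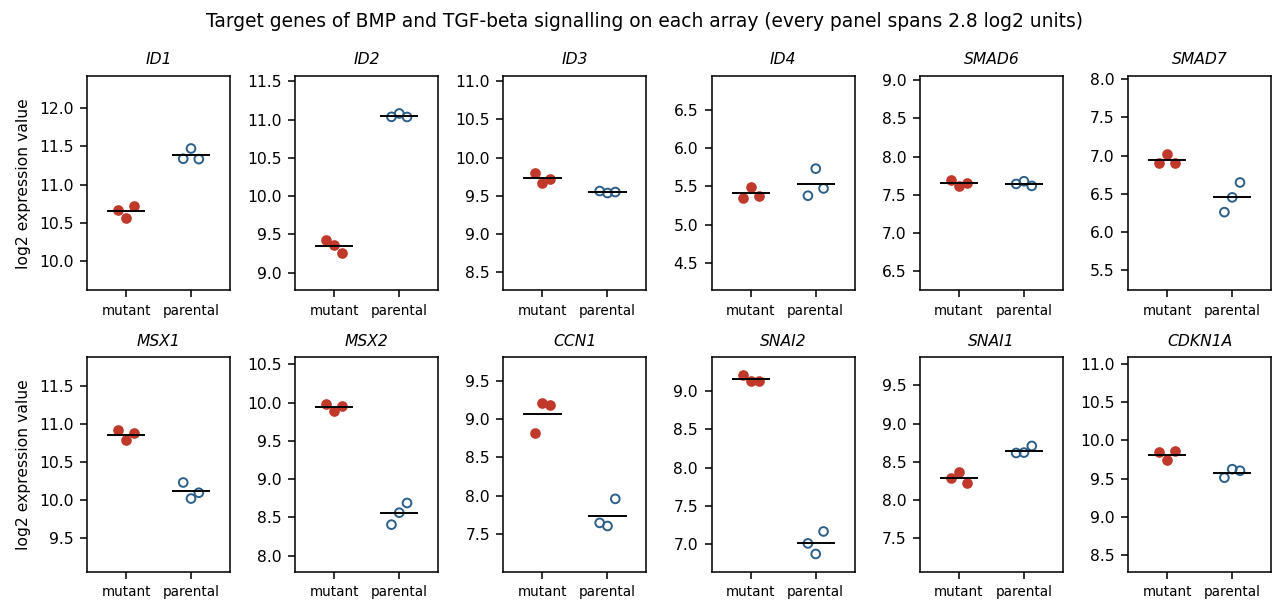
Log2 expression value on each array for 12 target genes, with mutant arrays (filled red) left of parental arrays (open blue) and a line at each mean. Every panel spans 2.8 log2 units, so that distances can be compared between genes. ID1, ID2 and SNAI1 are lower in the mutant, SMAD7, MSX1, MSX2, CCN1, SNAI2 and CDKN1A are higher, and ID3, ID4 and SMAD6 were not called.

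Over all the other pathway lists together, 118 genes were measured, 20 higher and 14 lower, which is 28.8% beside the 25.9% of all genes. Their median difference was -0.01. The share called was 9.52% of ligands, 22.2% of receptors and coreceptors and 28.6% of extracellular regulators. It was 44% of intracellular regulators, 33.3% of nuclear partners and 29.6% of target genes. Among 21 extracellular regulators 3 rose and 3 fell. ITGB8, whose integrin releases active TGF-beta from its latent complex, had 5.41, 5.26 and 5.43 on mutant arrays, against 7.59, 7.86 and 8.12 on parental arrays. The difference was -2.49 ± 0.14 (SE; adjusted p = 0.000175), the largest of these lists, and the mutant level lay where RMA compresses values. ITGAV, which encodes the alpha chain that pairs with beta 8, changed by -0.88 (adjusted p = 0.000288), while ITGB6, another partner, gave -0.07 and was dim in both lines. THBS1, which encodes the TGF-beta activating protein thrombospondin, rose by 0.89 ± 0.13 (SE; adjusted p = 0.00551).

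The protease genes TLL1, a relative of BMP1, and PCSK6, a proprotein convertase, rose by 1.37 (adjusted p = 0.00526) and 0.71 (adjusted p = 0.00171). The probe set of TLL1 was dim, with means of 7.28 ± 0.34 in mutant and 5.91 ± 0.23 in parental cells (SD). TWSG1, which binds BMP together with chordin, changed by -0.82 (adjusted p = 0.000717). Of 21 other ligand genes 1 rose and 1 fell: GDF15, a stress-induced member of the family, changed by -0.78 (adjusted p = 0.00111), and the dim INHBC by 0.53 (adjusted p = 0.0122). Of 9 receptors and coreceptors, NEO1 (0.29) was called higher and RGMA (-0.27) lower, the first call being lost without mutant array 1 or 3 or parental array 2 and the second without mutant array 2.

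Of 25 intracellular regulators 7 rose and 4 fell. All 11 were among the 23 with a mean log2 of at least 7, and 36.5% of all genes that bright were called. DAB2, an adaptor of TGF-beta receptor traffic, changed by -0.97 (adjusted p = 0.000176). NEDD4, the paralog of NEDD4L, changed by -0.56 (adjusted p = 0.0028), and STRAP, a partner of SMAD7, by -0.33 (adjusted p = 0.00446). The increases were of at most 0.36. They were led by ZFYVE16, an endosomal SMAD partner, by PPP1R15A, through which SMAD7 recruits a phosphatase to the receptor, and by the ubiquitin protease USP11, at 0.36, 0.35 and 0.35. The call of ZFYVE16 was lost without mutant array 1 or 3 or parental array 1 or 3, and that of USP11 without parental array 2. Of 15 nuclear partners 3 rose and 2 fell. EP300 and CREBBP, the acetyltransferases that SMADs recruit, rose by 0.37 (adjusted p = 0.00607) and 0.34 (adjusted p = 0.00794), and ZEB1 by 0.55 (adjusted p = 0.00543). RUNX2, a partner in bone, changed by -0.76 (adjusted p = 0.0104) and MECOM, a SMAD3 repressor, by -0.43 (adjusted p = 0.012), both from dim probe sets. The probe sets of MECOM disagreed: a dimmer one lay the other way at 0.20 (adjusted p = 0.258), and the mean of both gave -0.12 (adjusted p = 0.2). The call was also lost without mutant array 2.

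**Figure D4:**
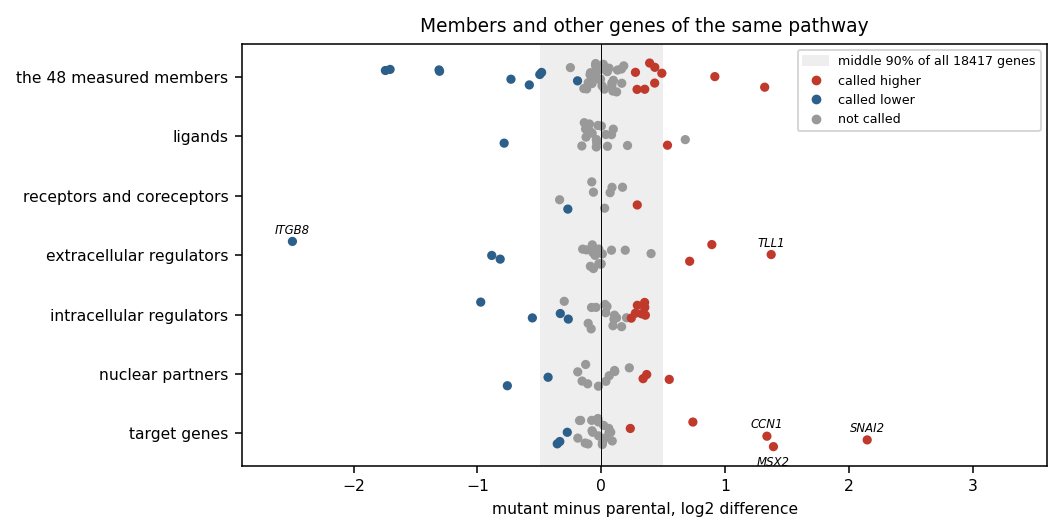
Mutant minus parental log2 difference of each gene for the 48 measured members (top row) and 6 lists of other pathway genes, with vertical scatter only to separate points. Red points were called higher, blue called lower and grey not called, and the shaded band holds the middle 90% of all 18417 genes. ITGB8 lies farthest left at -2.49 and SNAI2 farthest right at 2.15.

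Several pathway genes lie in chromosome segments where neighbours also moved, so each gene was set beside its up to 40 nearest genes whose mean log2 reached 7. Of all genes that bright 36.5% were called in either direction. Among genes of any brightness 11.3% were called lower and 14.6% higher. For TGIF1, on chromosome 18, 28 of 32 neighbours were called lower and 1 higher, with a median of -0.70, a larger shift than the -0.48 of TGIF1 itself. TWSG1, on the same chromosome, had a neighbour median of -0.62, beside its own -0.82. LDLRAD4, a membrane protein gene of the same chromosome from the list of intracellular regulators, had 26 of 40 neighbours lower with a median of -0.58, while its own dim probe set gave -0.08 and was not called. SMURF2, on chromosome 17, had 20 of 40 neighbours lower and 0 higher with a median of -0.26, and its own difference exceeded that by 1.05 log2 units downward (-1.05). For NOG, also on chromosome 17, 29 of 40 neighbours were lower with a median of -0.46, while NOG gave -0.05 from a dim probe set. SPHK1, from the list of target genes and on chromosome 17 too, had 20 of 40 neighbours lower and 2 higher. Their median was -0.25, beside the -0.27 of SPHK1 itself.

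NEDD4L, also on chromosome 18 and at -1.74, had a neighbour median of -0.06, with 14 of 40 lower and 6 higher. SMAD2, SMAD4 and SMAD7, on that chromosome too, had neighbour medians of 0.13, -0.03 and 0.13. Neighbours of TGFB2, on chromosome 1, were shifted the opposite way from the gene, with 21 of 40 higher and a median of 0.25. TGFBR1, on chromosome 9, gave 0.13 among neighbours with a median of 0.17. For BMP4, LTBP1, TGFBR2, ID1 and ID2 the neighbour medians lay between -0.07 and 0.08. Whether gene copy number differs between the lines was not tested.

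**Figure D5:**
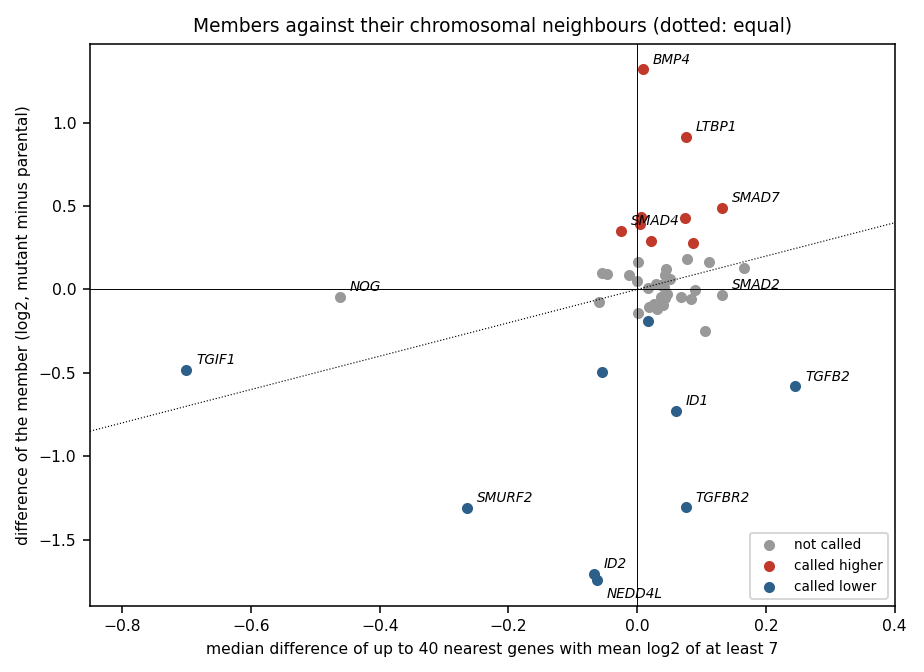
Difference of each measured pathway gene (vertical, log2, mutant minus parental) against the median difference of its nearest genes on the chromosome (horizontal), with the dotted line where both are equal. TGIF1 lies near the dotted line at -0.70 and -0.48, SMURF2 lies below it at -0.26 and -1.31, and NEDD4L, ID2, TGFBR2, ID1, BMP4 and LTBP1 lie far from it with neighbour medians near 0.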

How the data were processed

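RNA of 3 mutant and 3 parental HCT116 samples was hybridised to Affymetrix whole-transcript arrays after labelling of 100 ng, per the labels' protocols. The deposited values are log2 expression, for which the submitters' processing notes name Partek and RMA. The sources used here give neither their versions nor a genome build. RMA equalises array distributions, which removes differences in total RNA, and compresses dim signals. Of 33297 probe sets, 19460 have 1 symbol, 1754 have several and 12083 have none in the platform annotation used. Values were used as deposited.

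Differences were fitted for all probe sets with limma 3.58.1 (lmFit, eBayes, two-sided, 4 residual and 2.16 prior degrees of freedom) in R 4.3.3, with Benjamini-Hochberg adjustment and calls at 0.05. On simulated data with the same spread and 200 changed probe sets, 59.7% of 1.5-fold, 79.1% of 2-fold and 93.9% of 4-fold changes were called, with 12 false calls. In the data 6166 probe sets were called. With far fewer changed probe sets the adjustment is stricter, so these shares do not give the recovery in the data. Neighbours and symbols came from the RefSeq table of GRCh38.p14, and promoter windows from its sequence table, in Python 3.11.15. The other pathway lists held 126 symbols, of which 118 distinct genes were measured.

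Pathway genes called with at least 1.5-fold and the brightest of each role are given by array, as are some others chosen after their values were seen; from the other lists up to 3 called genes per direction were named, and any further gene was likewise chosen afterwards. The members and lists were chosen with earlier results of these data known. Same-numbered arrays of the lines deviated with correlations of -0.013 to 0.043, so the numbers were not taken to pair arrays. All 6 arrays entered every main value, and their small number sets the precision.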

Additional observations from a re-analysis of the deposited data

How the results depend on the processing

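The fit was repeated with 16 alternatives, among them renormalization, filters on dim probe sets, other variance models, array weights, gene means and each array left out. No difference of a called pathway gene reversed its sign in any of them. Of the 18 called genes, 9 kept their call in every alternative that tested them, and 14 did when the test for a fold above 1.2 is set aside; the other 4 were TGFB2, SMAD3, SMAD7 and SKIL. Requiring a fold of 1.2, a stricter test by construction, left 2 pathway genes higher and 7 lower (TGFB1, TGFB2, ACVR2B, BMPR2, SMAD3, SMAD4, SMAD5, SMAD7 and SKIL lost their calls), 7 other pathway genes higher and 6 lower, and 1442 genes and 1743 probe sets called on the array, against 4773 and 6166. With each array left out, 7 to 9 pathway genes were higher and 7 to 8 lower, 7 to 8 passed 1.5-fold, 14 to 17 other pathway genes were higher and 11 to 14 lower, and 3198 to 3627 genes and 4037 to 4644 probe sets were called. The lowest count of probe sets, 4037, came without mutant array 2, and 4109 were called without parental array 2. With the replicate number as a block (replicate block), 7 pathway genes were higher and 8 lower, 16 other pathway genes were higher and 12 lower, and 3395 genes and 4365 probe sets were called, SKIL, SMAD3 and SMAD7 losing their calls. ID3 gained a call with an intensity trend, an ordinary linear model, either filter on dim probe sets or gene means. The platform's compression of dim signals limits the 12 pathway genes with means under 7, of which the filters at 6 and 7 removed 8 and 12.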
